A study of Mus musculus with 9 samples.

Results

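The collagen chain genes are the genes whose products assemble into collagens, the main structural proteins of the extracellular matrix. They were taken by symbol, as every row named Col, a type number, the letter a and a chain number, which gave 44 of the 17314 genes in the table. By type number, 11 of them encode fibrillar chains, 6 encode basement membrane chains (type IV) and 27 encode other chains. RNA was sequenced from gastrocnemius, the large calf muscle, of mice aged 6, 15 and 21 months, with 3 mice per age and 1 library per mouse. The labels name the groups by life stage and age, and they name no treatment. The sources used here give no strain, sex or genotype. The mice of an age are called mouse 1, 2 and 3 by the numbers in the labels, and a number does not link mice of different ages. Aging of skeletal muscle is the subject named in the series title, and the question put to each pair of ages is which chains differed.

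A collagen molecule is a triple helix of alpha chains, made in the endoplasmic reticulum, where prolines and lysines are hydroxylated before the chains wind. Fibrillar collagens are trimmed outside the cell and packed into crosslinked fibrils, type IV collagen forms the sheet-like network of basement membranes around each muscle fibre and capillary, and type VI collagen forms beaded filaments beside that membrane. In skeletal muscle most interstitial collagen is made by fibroblasts and fibro-adipogenic progenitors, with type IV chains also coming from endothelial and muscle cells, and the matrix carries the force from fibres to tendon.

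Libraries held 15354396 to 17317856 counted reads, of which the collagen chains took 0.117 to 0.237%. Levels are given as CPM, read counts scaled to a common library size (with TMM factors). The fast myosin Myh4, a marker of the labelled tissue, stood at 33610 to 60200 CPM over the libraries. Slow fibre markers set 3 libraries apart, with a summed level of 94.1 CPM in mouse 2 at 6 months against 1023 CPM in mouse 1 at 15 months and 939 CPM in mouse 3 at 21 months. The others lay between them, mouse 2 at 15 months at 526 CPM and the rest at 187 to 326 CPM. The 3 were picked without a cutoff, and the split is not sharp. Tendon markers were present (9 of 9 tenocyte markers tested, summed 87.8 to 256 CPM). Of 6 cartilage and bone markers 1 was tested, Sox9, which was low at 1.07 to 2.58 CPM over the libraries. Acan was read in 1 library only, at 0.0629 CPM.

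Of the 44 chains, 36 had enough reads to be tested among 13044 genes: 10 of 11 fibrillar, 6 of 6 basement membrane and 20 of 27 other chains. The 8 untested chains held 0.107% of the summed collagen CPM over all libraries. They were Col2a1 with 31 reads in all 9 libraries, Col6a4 with 12, Col6a5 with 46, Col9a2 with 43, Col9a3 with 35, Col10a1 with 4, Col25a1 with 33 and Col26a1 with 36. Col2a1, Col9a2, Col9a3 and Col10a1 are cartilage collagens. At this depth no age difference could be measured for these 8.

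Transcripts of types IV, I, III and VI dominated. On a scale corrected for transcript length (CPM per kilobase, mean of 9 libraries), Col4a1 stood highest at 37.7, followed by Col3a1 at 34.4, Col1a2 at 28.5, Col4a2 at 26.4, Col6a1 at 24.7 and Col6a2 at 19.2. A gap separated these from Col1a1 at 10.6, Col15a1 at 9.56, Col5a3 at 9.38, Col7a1 at 9.36 and Col6a3 at 9.02. The ranges over libraries of the leading chains overlapped, from 24.9 to 46.4 for Col4a1 and from 17.1 to 65.6 for Col3a1, so their order is not firm. Col4a1 and Col4a2 together took 27.4% of the summed collagen CPM, Col1a1, Col1a2 and Col3a1 took 26.5%, and Col6a1, Col6a2 and Col6a3 took 18.4%. These 8 genes held 72.2% of it.

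One library stood apart in its collagen level. Summed over all 44 chains, mouse 3 at 6 months held 2370 CPM, and the other 6-month mice held 1527 and 1271 CPM. At 15 months the sums were 1601, 1430 and 1240 CPM, and at 21 months 1436, 1459 and 1468 CPM. The 21-month mice therefore lay within a narrow band (mean 1455 ± 16.6 CPM, SD, n = 3), inside the range of the 6-month mice (1723 ± 575 CPM). Mouse 3 at 6 months had the highest of the 9 values for 22 of the 36 tested chains, while 14.7% of all tested genes were highest in that library. Chain by chain, its level was 1.49 times the median of the other 8 libraries (median of 36 chains), and over all 13044 genes the same median was 0.999. The ratio ran from 1.70 to 2.25 for the 6 chains of types I, III and V and from 1.64 to 2.94 for the 4 tested type VI chains. It was 1.23 for Col4a1, 1.24 for Col4a2, 0.773 for Col8a1 and 0.752 for Col24a1. The higher collagen reading of this mouse was thus spread over most fibrillar chains, the type VI chains and others, such as Col15a1 at 2.08. Among fibrillar chains Col11a1 stood at only 1.02. The excess was small for the main basement membrane pair, but the ratio was 1.88 for Col4a3, 1.44 for Col4a4 and 1.82 for Col4a5, and 0.870 for Col4a6.

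Markers of the collagen-making cells were, as sums, not highest in that mouse. Fibro-adipogenic progenitor markers summed to 2874, 4377 and 3660 CPM at 6 months, highest in mouse 2, and 3 of 10 were highest in mouse 3. The same sum was 2915 to 2984 CPM at 15 months and 2718 to 2914 CPM at 21 months, close to mouse 1 and below mice 2 and 3 at 6 months. Tenocyte markers summed to 151, 239 and 189 CPM at 6 months, and 0 of 9 were highest in mouse 3. Mouse 3 at 6 months was also highest for 20 of 60 tested genes of collagen processing, among them 7 of 12 secreted processing and crosslinking genes, 6 of 9 breakdown genes, 4 of 19 modifying enzymes and chaperones, 2 of 9 receptors and 1 of 11 inducing signals. The part of these markers in the results below was not tested. In bulk tissue, fewer cells of a type and less RNA per cell cannot be told apart.

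**Figure D1:**
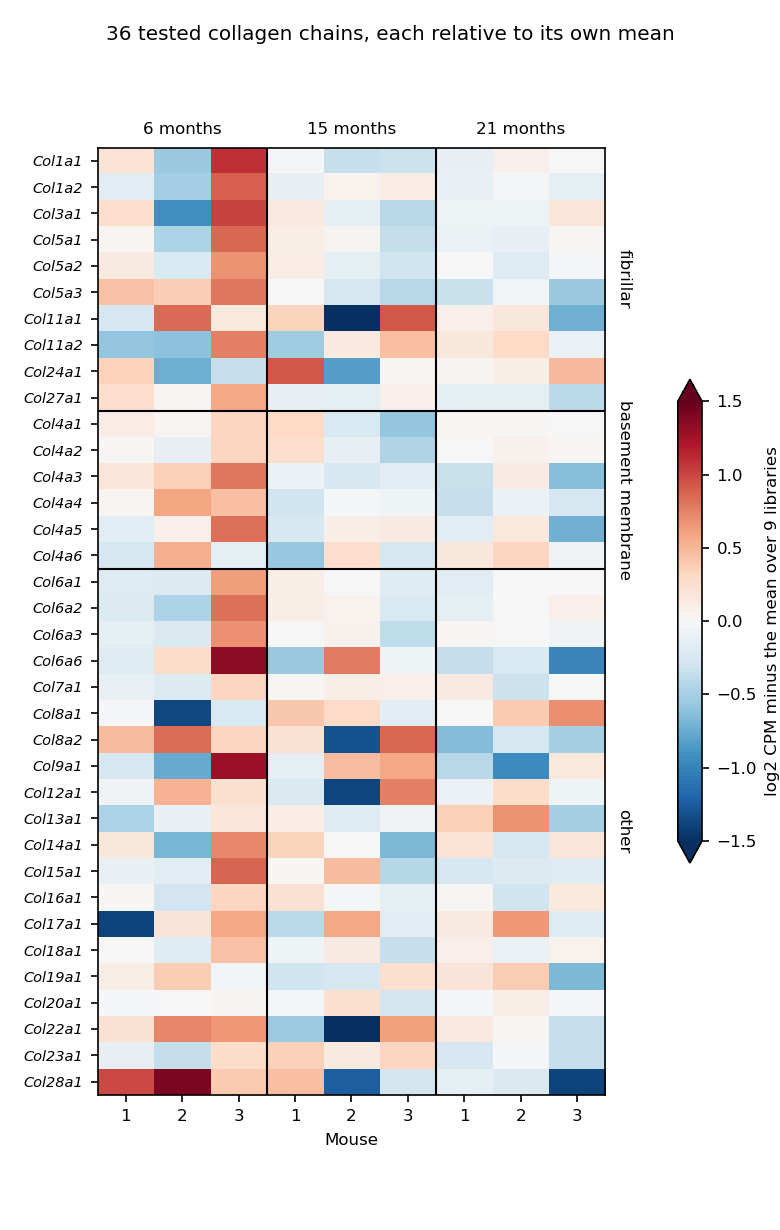
Level of each tested collagen chain in each mouse, as log2 CPM minus the mean of that chain over the 9 libraries (colour scale limited at -1.5 and 1.5), with chains grouped into fibrillar, basement membrane and other. The column of mouse 3 at 6 months is the highest for 22 of 36 chains, and the 21-month columns are even for the abundant chains.

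No collagen chain passed an adjusted p of 0.05 in edgeR at 21 against 6 months (0 of 36, where 0.0153% of all genes were called) or at 15 against 6 months (0 of 36, where 0.00767% of all genes were called). DESeq2, another count model, called 1 chain in each, Col5a3. At 21 against 6 months 29 of the 36 log2 fold changes were below 0 and 7 above, with a median of -0.20 (-0.01 for all genes, of which 52.0% were below 0). The medians were -0.32 for fibrillar chains (8 of 10 below 0), -0.33 for basement membrane chains (5 of 6) and -0.17 for other chains (16 of 20). At 15 against 6 months the split was again 29 below and 7 above, with a median of -0.23 (all genes -0.01), and class medians of -0.32, -0.30 and -0.19. These 2 comparisons share the 6-month mice. Without mouse 3 at 6 months the split turned to 16 below and 20 above at 21 months, with class medians of 0.13, -0.11 and 0.11, and to 15 below and 21 above at 15 months, with class medians of 0.02, -0.26 and 0.16. The lower medians of fibrillar and other chains thus rest on that 1 library, and only the basement membrane medians stay below 0 without it. Without mouse 1 at 6 months 33 chains were below 0 and 3 above at each older age. Without mouse 2 at 6 months 30 were below 0 at 21 months and 29 at 15 months. Mouse 3 was singled out for its high collagen level in these same data, so leaving it out was bound to raise these medians. Other cell type markers also differed between these ages. Slow fibre markers were above 0 for 8 of 8 at both older ages, with sums of 94.1 to 218 CPM at 6 months, 326 to 1023 at 15 months and 187 to 939 at 21 months. Macrophage markers were above 0 for 0 of 9, with sums of 180.4 to 279, 92.9 to 207 and 119 to 195 CPM. Adipocyte markers were above 0 for 1 of 5 tested at each older age, with median log2 fold changes of -1.48 at 15 and -1.17 at 21 months, while their sums were 176 to 328, 243 to 401 and 277 to 367 CPM. Adipoq, 1 of the 5, was high in mouse 2 at 6 months only, at 9.33 CPM. It stood at 0.817 and 1.165 CPM in mice 1 and 3 of that age, and at 0.185 to 2.91 CPM in the older mice. The part of these markers in the collagen levels was not tested. Without the 3 libraries set apart by slow fibre markers 26 chains were below 0 and 10 above at 21 months, and 30 below and 6 above at 15 months. That set drops mouse 2 at 6 months, the lowest collagen sum of its age (1271 CPM), and keeps mouse 3 (2370 CPM). It therefore cannot check how far the split rests on mouse 3.

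Counts of single chains are given beside the share of all genes, and several lay near that share. At an unadjusted p under 0.05, 7 chains were lower at 21 than at 6 months (5.5% of all genes were) and 1 was higher (5.14% of all genes were). At 15 against 6 months 4 chains were lower (5.38% of all genes) and 0 were higher (4.91% of all genes). The 21-month values were all under the 6-month values for 9 chains, Col4a3, Col4a4, Col5a3, Col6a6, Col8a2, Col15a1, Col22a1, Col27a1 and Col28a1 (8.31% of all genes), and all over them for 1, Col8a1 (7.81% of all genes). The 15-month values were all under the 6-month values for Col4a3, Col4a4 and Col5a3 (7.14% of all genes) and all over them for 0 chains (6.64% of all genes). All 6 older mice therefore lay below all 3 young mice for Col4a3, Col4a4 and Col5a3, which is 3 of 36 chains where 3.6% of all genes did so, and above for 0 (3.48% of all genes). With all ages in 1 F-test, 0 chains passed the adjusted threshold (0% of all genes did), and 4 had an unadjusted p under 0.05 (8.55% of all genes): Col5a3, Col4a4, Col4a3 and Col28a1. The counts of chains at an unadjusted p under 0.05 against 6 months depend on single libraries. Without mouse 3 at 6 months they were 4 lower and 3 higher at 21 months, and 3 lower and 4 higher at 15 months. Without mouse 2 at 6 months the lower chains were 13 at 21 months and 7 at 15 months, and without mouse 3 at 21 months they were 4 at 21 months. Without the 3 libraries set apart by slow fibre markers, which drops mouse 2 and keeps mouse 3 at 6 months, they were 10 at each age, with 0 higher.

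**Figure D2:**
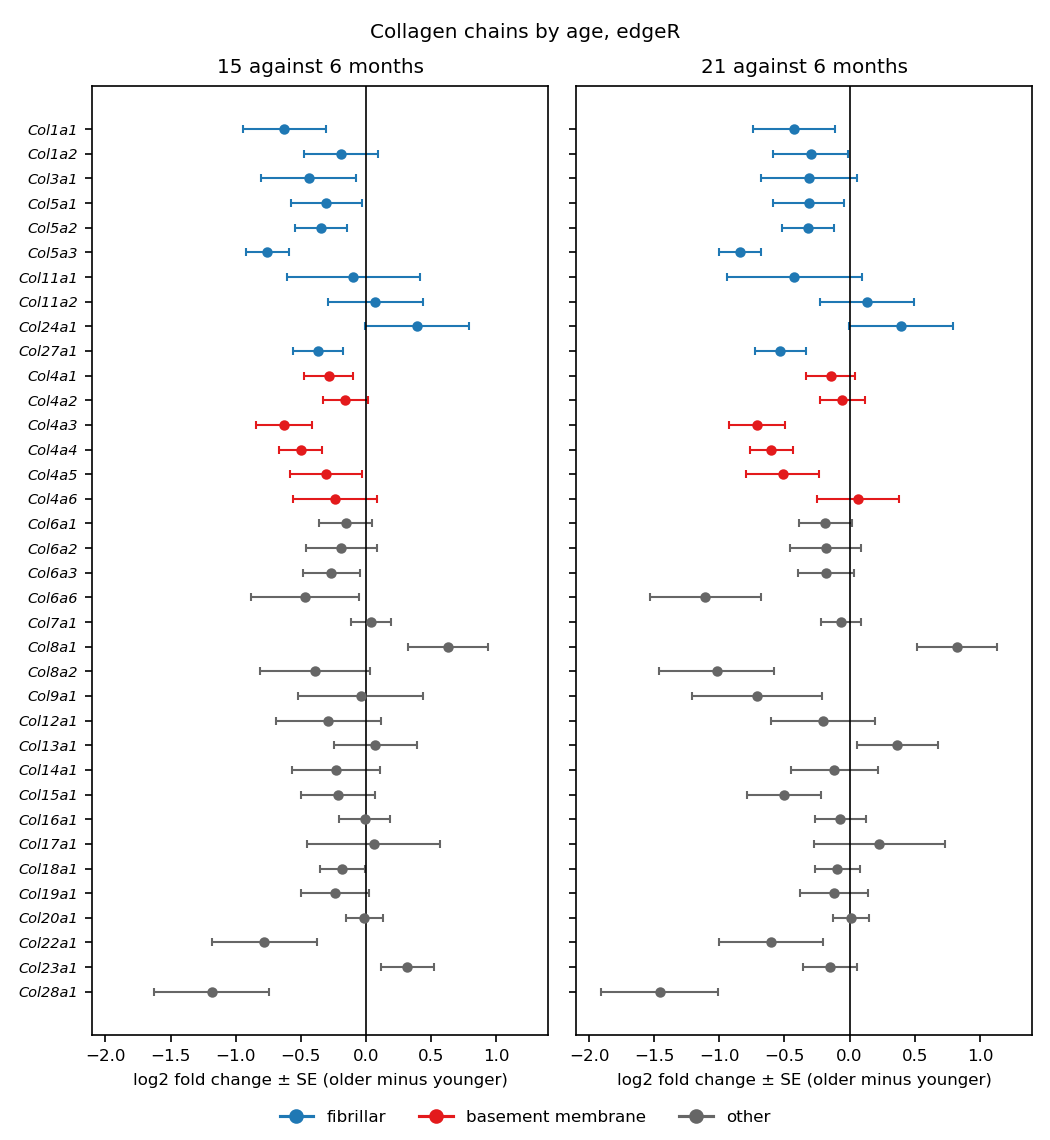
Log2 fold change of each tested collagen chain (points, older minus younger, edgeR) with its SE (bars), at 15 against 6 months (left) and 21 against 6 months (right), coloured by class. Most points lie left of 0 in both panels, a split that turns without mouse 3 at 6 months, Col8a1 lies at 0.63 and 0.82, and Col5a3 has the short bar far from 0 among the abundant chains.

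The fibrillar chains of types I and III form the thick fibrils of the muscle's connective tissue sheaths. Col1a1, the main chain of type I collagen (Entrez ID 12842, chromosome 11, 94936224 to 94953042, plus strand, mm10), stood at 68.3, 40.5 and 127 CPM at 6 months, 58.7, 46.9 and 47.3 at 15 months and 54.6, 62.4 and 58.9 at 21 months, in the order of mice 1, 2 and 3. Col1a2, its partner in the type I heterotrimer (Entrez ID 12843, chromosome 6, 4505618 to 4541543, plus strand), stood at 132, 103 and 275 CPM at 6 months, 135, 153 and 159 at 15 months and 137, 144 and 134 at 21 months. Col3a1, the single chain of type III collagen (Entrez ID 12825, chromosome 1, 45311538 to 45349706, plus strand), stood at 217, 95.3 and 365 CPM at 6 months, 199, 165 and 135 at 15 months and 170.4, 171 and 205 at 21 months. In all 3 genes mouse 3 at 6 months was highest and mouse 2 at 6 months lowest, so the 6-month mice enclosed all older ones. The log2 fold changes at 21 against 6 months were -0.43 (SE 0.32, edgeR adjusted p = 0.672) for Col1a1, -0.30 (SE 0.29, edgeR adjusted p = 0.751) for Col1a2 and -0.31 (SE 0.37, edgeR adjusted p = 0.808) for Col3a1. At 15 against 6 months the differences were -0.63 (SE 0.32, edgeR adjusted p = 0.535), -0.19 (SE 0.29, edgeR adjusted p = 0.841) and -0.44 (SE 0.37, edgeR adjusted p = 0.715) in the same order.

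**Figure D3:**
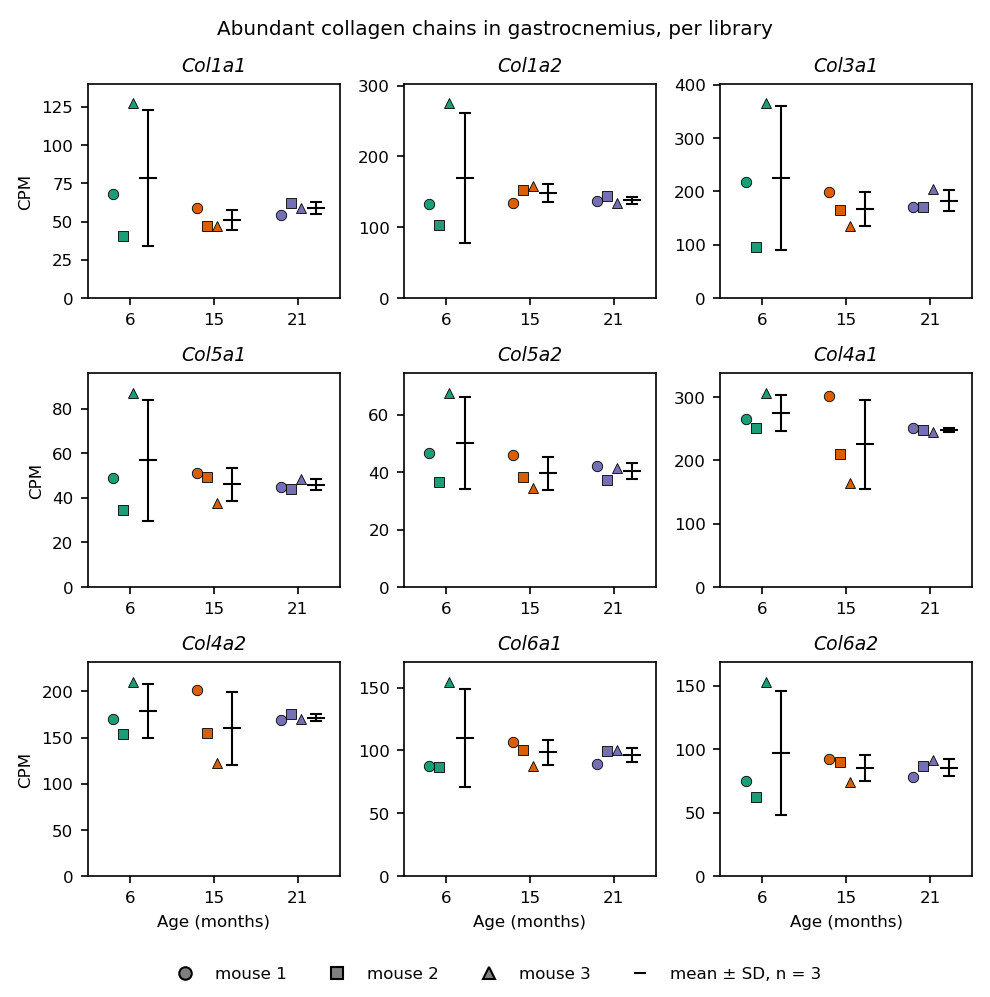
CPM of 9 abundant collagen chains in each mouse, by age, with mean and SD of 3 mice beside the points, each panel starting at 0. Mouse 3 at 6 months (triangle) is the highest point in every panel, and the 21-month mice lie close together.

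Type V chains sit inside type I fibrils and limit their width. Col5a1 (Entrez ID 12831, chromosome 2, 27886381 to 28039510, plus strand) stood at 48.8, 34.7 and 87.2 CPM at 6 months, 51.3, 49.4 and 37.5 at 15 months and 45.1, 43.9 and 48.5 at 21 months. Col5a2 (Entrez ID 12832, chromosome 1, 45374331 to 45503282, minus strand) stood at 46.6, 36.5 and 67.8 CPM at 6 months, 46.0, 38.3 and 34.6 at 15 months and 42.3, 37.2 and 41.6 at 21 months. These chains followed the pattern of type I, with mouse 3 at 6 months on top and overlapping ages, and their log2 fold changes at 21 against 6 months were -0.31 (SE 0.27, edgeR adjusted p = 0.725) and -0.32 (SE 0.20, edgeR adjusted p = 0.602). For the third type V chain the 6-month mice lay apart from both older ages. Col5a3 (Entrez ID 53867, chromosome 9, 20770050 to 20815117, minus strand), which joins some type V molecules in place of another chain, stood at 74.5, 70.7 and 94.9 CPM at 6 months, 54.9, 46.2 and 41.1 at 15 months and 43.5, 53.2 and 37.3 at 21 months. Every young mouse lay above every older one, with means of 80.0 ± 13.03 CPM, 47.4 ± 6.94 CPM and 44.7 ± 8.02 CPM (SD, n = 3 each) at 6, 15 and 21 months. Its log2 fold change was -0.84 (SE 0.16, edgeR adjusted p = 0.0854) at 21 against 6 months and -0.76 (SE 0.16, edgeR adjusted p = 0.210) at 15 against 6 months, neither past the threshold. DESeq2 gave adjusted p-values of 0.000987 and 0.00812 for these comparisons. With that tool Col5a3 was the 1 collagen chain called of 36 in each, where 1.5% and 0.836% of all genes were called, and also in its test over all ages, where 1.53% were. Without mouse 3 at 6 months the Col5a3 differences were -0.69 and -0.61, and over all libraries left out in turn they ran from -0.99 to -0.69 and from -0.87 to -0.61.

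Sequence upstream of the genes is shown for Col1a2 and Col3a1, fibrillar chains that were highest and lowest in the same mice, and for Col5a3, which was lower in every older mouse. The stretches are the non-exonic bases that RefSeq (GRCm38.p6) places before the transcript start, written 5′ to 3′ on the gene's strand, with capitals marking the core of the TATA box, written TATAAA, the box named for its letters CCAAT, or the GC box, written GGGCGG and printed as its reverse complement when it lies on the other strand.
Col1a2 upstream, chr6:4505370-4505492, plus strand: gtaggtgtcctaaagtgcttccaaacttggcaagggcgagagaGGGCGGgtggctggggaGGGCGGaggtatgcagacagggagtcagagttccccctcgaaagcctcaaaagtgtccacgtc
Col3a1 upstream, chr1:45311388-45311537, plus strand: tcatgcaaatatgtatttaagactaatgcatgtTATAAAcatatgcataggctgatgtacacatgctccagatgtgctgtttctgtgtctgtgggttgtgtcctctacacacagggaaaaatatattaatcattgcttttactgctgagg
Col5a3 upstream, chr9:20815118-20815267, minus strand: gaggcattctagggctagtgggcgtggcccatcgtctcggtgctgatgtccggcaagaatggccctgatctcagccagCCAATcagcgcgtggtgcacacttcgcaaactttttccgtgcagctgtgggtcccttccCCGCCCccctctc
The Col1a2 stretch of 123 bases ends 126 bases before the start and has 2 GC boxes and 59.3% GC. The Col3a1 stretch of 150 bases ends at the base before the start, with a TATAAA and 37.3% GC. The Col5a3 stretch, also of 150 bases, ends at the base before the RefSeq span given above. The start of its RefSeq promoter lies inside that span, 51 bases from the end of the stretch. The stretch holds a CCAAT and a GC box on the other strand, with 62.0% GC. Searched on both strands over 250 upstream bases, TATAAA was found in 5 of 38 promoters of collagen chains and in 12.4% of 32851 mouse promoters. CCAAT was found in 13 of 38 against 33.8%, and GGGCGG in 22 of 38 against 32.7%. RefSeq promoters matched 35 of the 44 chains, some with more than 1 start. A match to these letters describes the sequence only.

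The minor fibrillar chains were scarce. Col27a1 (Entrez ID 373864, chromosome 4, 63214009 to 63334991, plus strand), a fibrillar chain best known from cartilage, stood at 3.90, 3.32 and 4.84 CPM at 6 months, 2.98, 2.96 and 3.41 at 15 months and 2.95, 2.92 and 2.47 at 21 months. The mice at 21 months lay below all others, and the difference from 6 months was -0.53 (SE 0.19, edgeR adjusted p = 0.364). Col11a1, Col11a2 and Col24a1 ranged from 0.493 to 2.72, from 4.88 to 12.6 and from 3.51 to 11.9 CPM, with overlapping ages. Their log2 fold changes at 21 against 6 months were -0.42 (SE 0.52, edgeR adjusted p = 0.818), 0.13 (SE 0.36, edgeR adjusted p = 0.931) and 0.40 (SE 0.40, edgeR adjusted p = 0.763). Col11a2 and Col24a1 were the 2 fibrillar chains above 0.

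The basement membrane chains differed widely in level. Col4a1 (Entrez ID 12826, chromosome 8, 11198423 to 11312889, minus strand) and Col4a2 (Entrez ID 12827, chromosome 8, 11312805 to 11449287, plus strand), which form the type IV molecule found in nearly all basement membranes, were the abundant pair. Col4a1 stood at 266, 251 and 307 CPM at 6 months, 301, 209.5 and 165 at 15 months and 251, 249 and 245 at 21 months. Col4a2 stood at 171, 154 and 211 CPM at 6 months, 202, 155 and 123 at 15 months and 169, 176 and 169.8 at 21 months. At 15 months mouse 1 was high and mouse 3 low in both, and the 21-month mice lay close together. They lay inside the 6-month range for Col4a2, and 2 of the 3 lay just below it for Col4a1. The log2 fold changes at 21 against 6 months were -0.15 (SE 0.19, edgeR adjusted p = 0.831) and -0.06 (SE 0.17, edgeR adjusted p = 0.938). Endothelial markers, of a cell type that makes this pair, summed to 554 to 782, 605 to 800.1 and 608 to 733 CPM at the 3 ages, with 4 of 8 above 0. The pair starts head to head on chromosome 8. In GENCODE, whose ends differ in part from the RefSeq spans above, the starts are 11312805 (Col4a2) and 11312826 (Col4a1), with 22 exonic bases shared on opposite strands.

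Col4a3 and Col4a4, chains of the type IV network known from kidney glomerulus, lung and muscle synapses, were scarce (0.734 and 0.814 CPM per kilobase) and were lower in every older mouse. Col4a3 (Entrez ID 12828, chromosome 1, 82586921 to 82722059, plus strand) stood at 6.85, 7.76 and 10.4 CPM at 6 months, 5.70, 5.12 and 5.37 at 15 months and 4.81, 6.56 and 3.89 at 21 months. Col4a4 (Entrez ID 12829, chromosome 1, 82448419 to 82587034, minus strand) stood at 8.17, 12.1 and 10.97 CPM at 6 months, 6.51, 7.89 and 7.71 at 15 months and 6.31, 7.58 and 6.73 at 21 months. No older mouse reached the lowest young mouse in either gene. For Col4a3 the log2 fold change was -0.71 (SE 0.22, edgeR adjusted p = 0.259) at 21 and -0.63 (SE 0.21, edgeR adjusted p = 0.373) at 15 against 6 months. For Col4a4 it was -0.60 (SE 0.17, edgeR adjusted p = 0.228) and -0.50 (SE 0.17, edgeR adjusted p = 0.361). None passed the threshold, and leaving out libraries in turn kept the 21-month difference between -0.94 and -0.51 for Col4a3 and between -0.75 and -0.48 for Col4a4. The 15-month difference of Col4a4 was -0.30 without the 3 libraries set apart by slow fibre markers. In the protein-coding GENCODE transcripts the starts of these genes lie 127 bases apart on opposite strands of chromosome 1, at 82586976 (Col4a3) and 82586849 (Col4a4). The RefSeq spans given above overlap instead. Col4a3 shares 563 exonic bases with C430014B12Rik on the opposite strand, a gene not analysed here, and without strand in the counting their reads cannot be told apart.

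Col4a5, which joins Col4a3 and Col4a4 in 1 molecule, had its highest value, 13.6 CPM, in mouse 3 at 6 months and its lowest, 4.63 CPM, in mouse 3 at 21 months. The ages overlapped, with a log2 fold change of -0.52 (SE 0.28, edgeR adjusted p = 0.545) at 21 against 6 months. Col4a6, its neighbour on chromosome X, ranged from 0.868 to 1.88 CPM, with a difference of 0.06 (SE 0.31, edgeR adjusted p = 0.967). It was the 1 basement membrane chain above 0.

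Type VI chains, which link the basement membrane to the interstitial matrix, are encoded by genes mutated in congenital muscular dystrophies. Col6a1 (Entrez ID 12833, chromosome 10, 76708792 to 76726044, minus strand) stood at 87.7, 86.6 and 155 CPM at 6 months, 107, 101 and 87.7 at 15 months and 89.6, 99.2 and 100.1 at 21 months. Col6a2 (Entrez ID 12834, chromosome 10, 76595756 to 76623630, minus strand) stood at 75.4, 62.7 and 153 CPM at 6 months, 92.1, 89.6 and 73.9 at 15 months and 78.4, 86.5 and 91.3 at 21 months. Col6a3 (Entrez ID 12835, chromosome 1, 90766860 to 90844001, minus strand) stood at 81.5, 76.9 and 144 CPM at 6 months, 89.3, 93.7 and 68.4 at 15 months and 90.8, 89.8 and 86.0 at 21 months. Mouse 3 at 6 months was far above the other 8 mice in all 3, and the rest overlapped across ages. Their log2 fold changes at 21 against 6 months were -0.19 (SE 0.20, edgeR adjusted p = 0.785), -0.19 (SE 0.27, edgeR adjusted p = 0.858) and -0.18 (SE 0.22, edgeR adjusted p = 0.815). Col6a6 (Entrez ID 245026, chromosome 9, 105689417 to 105828246, minus strand), an alternative to the Col6a3 product, stood at 7.16, 9.95 and 20.8 CPM at 6 months, 5.58, 14.1 and 7.83 at 15 months and 6.43, 6.98 and 4.14 at 21 months. All 21-month mice lay below all 6-month mice, the closest at 6.98 against 7.16 CPM, and mouse 2 at 15 months was high. The Col6a6 difference of -1.11 (SE 0.43, edgeR adjusted p = 0.385) shrank to -0.54 without mouse 3 at 6 months.

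Type VIII chains form the network collagen of vessel walls and endothelium, and its chains differed in opposite directions, neither past the adjusted threshold. Col8a1 (Entrez ID 12837, chromosome 16, 57624256 to 57754737, minus strand) stood at 9.18, 3.63 and 8.03 CPM at 6 months, 12.4, 11.5 and 8.40 at 15 months and 9.32, 12.3 and 15.3 at 21 months. Col8a2 (Entrez ID 329941, chromosome 4, 126286794 to 126314330, plus strand) stood at 1.70, 2.19 and 1.53 CPM at 6 months, 1.43, 0.493 and 2.21 at 15 months and 0.781, 1.01 and 0.865 at 21 months. The 21-month mice lay above the 6-month mice for Col8a1 and below them for Col8a2, while the 15-month mice overlapped with both ages in each gene. The log2 fold change at 21 against 6 months was 0.82 (SE 0.31, edgeR adjusted p = 0.374) for Col8a1, the largest above 0 among the 36 chains, and -1.02 (SE 0.44, edgeR adjusted p = 0.443) for Col8a2. Mouse 2 at 6 months, lowest in Col8a1, was also the lowest mouse in the smooth muscle genes Acta2 (20.9 CPM, others 41.4 to 79.0) and Myh11 (37.7 CPM, others 48.7 to 78.3). Without that mouse the Col8a1 difference was 0.51, without the 3 libraries set apart by slow fibre markers it was 0.33, and the part of vessel content in it was not tested. Smooth muscle and pericyte markers as a list summed to 1112 to 1432 CPM at 6 months and 1309 to 1537 CPM at 21 months, and 7 of 8 had a log2 fold change above 0.

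Among the multiplexins, basement membrane collagens that carry sugar chains, Col15a1 (Entrez ID 12819, chromosome 4, 47207655 to 47313167, plus strand) is the form typical of muscle and capillaries. It stood at 44.1, 42.1 and 87.1 CPM at 6 months, 48.2, 65.8 and 35.4 at 15 months and 39.4, 41.3 and 41.7 at 21 months. The 21-month mice lay just below the 6-month mice, with a difference of -0.50 (SE 0.28, edgeR adjusted p = 0.564). Col18a1 (Entrez ID 12822, chromosome 10, 77052178 to 77166530, minus strand), the precursor of endostatin, stood at 12.9, 11.4 and 17.5 CPM at 6 months, 12.4, 14.2 and 10.2 at 15 months and 13.7, 12.1 and 13.4 at 21 months and overlapped across ages (log2 fold change -0.09, SE 0.17, edgeR adjusted p = 0.889).

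Col7a1 (Entrez ID 12836, chromosome 9, 108953586 to 108984875, plus strand), the anchoring fibril collagen known from skin, stood at 79.4, 74.8 and 107 CPM at 6 months, 86.6, 91.5 and 90.2 at 15 months and 94.4, 68.8 and 86.3 at 21 months. The ages overlapped, with a difference of -0.07 (SE 0.15, edgeR adjusted p = 0.915), and its level per kilobase of 9.36 was like that of Col5a3.

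Fibril-associated chains decorate the surface of fibrils. Col22a1 (Entrez ID 69700, chromosome 15, 71795795 to 72150979, minus strand), the collagen of the muscle-tendon junction, stood at 19.4, 27.4 and 26 CPM at 6 months, 11.3, 5.79 and 25.3 at 15 months and 18.3, 16.7 and 13.03 at 21 months. The 21-month mice lay below all 6-month mice (log2 fold change -0.60, SE 0.40, edgeR adjusted p = 0.623), but at 15 months mouse 3 was as high as the young mice and mouse 2 was the lowest of all (log2 fold change -0.78, SE 0.40, edgeR adjusted p = 0.542). Tendon markers followed those 15-month mice in part, since the tenocyte sum was 87.8 CPM in mouse 2 and 256 CPM in mouse 3, the lowest and highest of the 9, and Fmod, a tendon proteoglycan, was 14.4 and 109.5 CPM. The part of tendon content in the Col22a1 level was not tested. Of the other tested fibril-associated chains, Col9a1, Col12a1, Col14a1, Col16a1 and Col19a1 had log2 fold changes of -0.71, -0.20, -0.12, -0.07 and -0.12 at 21 against 6 months. Col20a1, at 7.58 to 10.8 CPM in the 9 mice, was the steadiest at 0.01 (SE 0.14, edgeR adjusted p = 0.987). Col12a1, a chain of tendon and muscle fascia, was also lowest in mouse 2 (1.91 CPM) and highest in mouse 3 (8.40 CPM) at 15 months.

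Transmembrane chains stay anchored in the cell membrane. Col23a1 (Entrez ID 237759, chromosome 11, 51289679 to 51583925, plus strand) stood at 2.89, 2.44 and 3.80 CPM at 6 months, 4.03, 3.45 and 3.92 at 15 months and 2.64, 3.10 and 2.47 at 21 months. It was the 1 chain with an unadjusted p under 0.05 at 21 against 15 months, all mice at 21 months being lower (log2 fold change -0.47, SE 0.21, edgeR adjusted p = 0.9999). Col13a1, which is concentrated at the neuromuscular junction, ranged from 1.30 to 2.92 CPM with overlapping ages (log2 fold change 0.37, SE 0.31, edgeR adjusted p = 0.721). Col17a1, a hemidesmosome chain of epithelia, ranged from 0.189 to 0.776 CPM (log2 fold change 0.23, SE 0.50, edgeR adjusted p = 0.911).

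Col28a1 (Entrez ID 213945, chromosome 6, 7997100 to 8193709, minus strand), a collagen known from Schwann cells of peripheral nerve, stood at 2.89, 3.88 and 1.90 CPM at 6 months, 1.98, 0.616 and 1.20 at 15 months and 1.32, 1.25 and 0.556 at 21 months. All 21-month mice lay below the 6-month mice, and mouse 1 at 15 months lay within the range of the young. The difference was -1.46 (SE 0.45, edgeR adjusted p = 0.263) at 21 months, the lowest value of the 36 chains, and -1.19 (SE 0.44, edgeR adjusted p = 0.400) at 15 months. Without the 3 libraries set apart by slow fibre markers the 21-month difference was -0.89, smaller in size than that of Col6a6 (-1.06). Schwann cell markers summed to 103, 71.5 and 115 CPM at 6 months, 97.0 to 168 CPM at 15 months and 87.4 to 93.2 CPM at 21 months. Their log2 fold changes from 6 months were above 0 for 6 of 6 at 15 months and for 1 of 6 at 21 months, and their part in the Col28a1 level was not tested. Col28a1 counted 252 reads in all 9 libraries, so counting error adds to its spread.

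**Figure D4:**
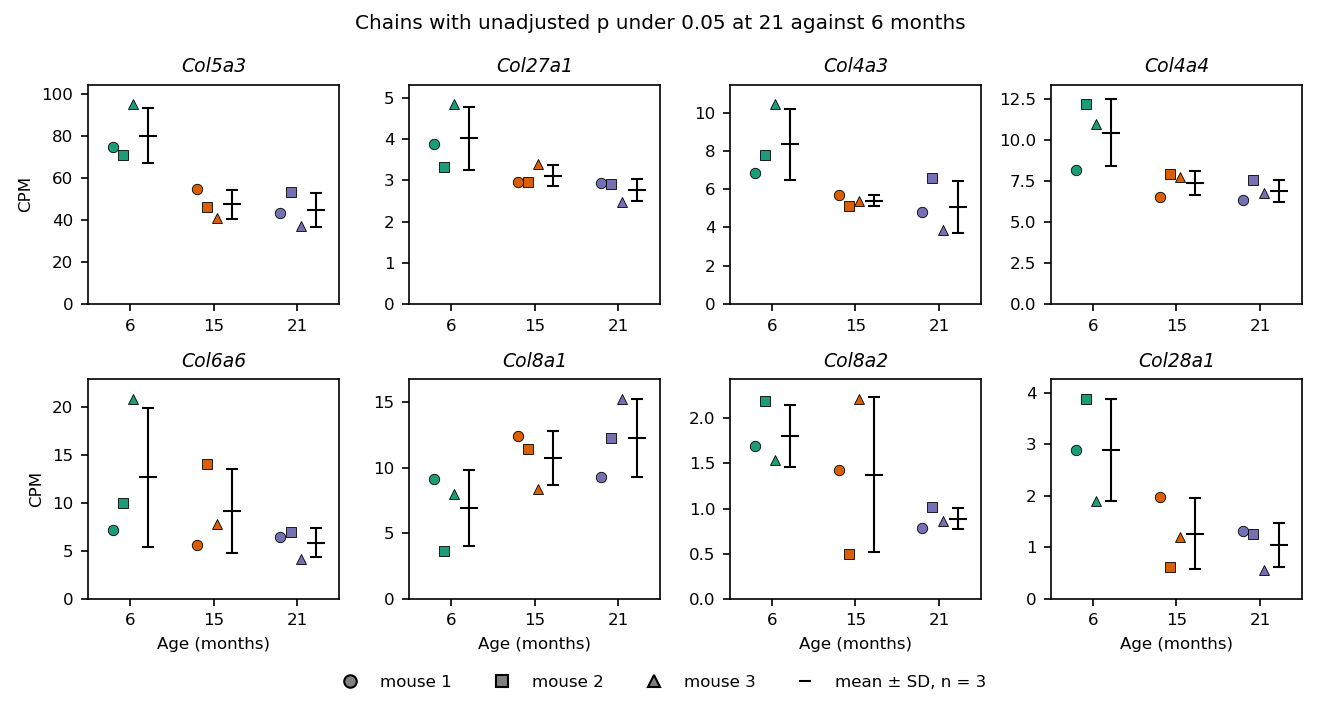
CPM in each mouse of the 8 collagen chains with an unadjusted p under 0.05 at 21 against 6 months, with mean and SD of 3 mice per age and axes from 0. For Col5a3, Col4a3 and Col4a4 all older mice lie below all young mice, and Col8a1 is the 1 chain that is higher at 21 months.

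At 21 against 15 months the chains showed no common direction. Of 36 chains 17 were below and 19 above 0, with a median of 0.005 (-0.003 for all genes) and class medians of -0.001, 0.009 and 0.014. No chain was called (0% of all genes were by edgeR, 0.023% by DESeq2). At an unadjusted p under 0.05, 1 chain was lower (0.736% of all genes) and 0 were higher (1.08% of all genes). Groups did not overlap for Col23a1 and Col27a1, both lower (3.3% of all genes), and for 0 higher chains (2.84% of all genes). Without mouse 3 at 15 months the split was 25 below and 11 above.

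Ratios between chains that build 1 molecule varied to different degrees. Ratios between chains of different molecules were not computed, so a narrow ratio is not shown to be particular to partners. Over the 9 mice the log2 ratio of Col4a1 to Col4a2 ran from 0.42 to 0.71 (SD 0.09), narrower than the spread of either chain (SD of log2 CPM 0.27 and 0.23). The ratio of Col6a3 to Col6a1 had an SD of 0.11, that of Col6a1 to Col6a2 0.12 and that of Col5a1 to Col5a2 0.14, also below the SDs of their chains, which ran from 0.26 to 0.38. Mouse 3 at 6 months had the lowest Col6a1 to Col6a2 ratio (0.014) and, after mouse 2 at 15 months (0.367), the next highest Col5a1 to Col5a2 ratio (0.363). Col1a1 to Col1a2 was looser (SD 0.26, from -1.75 to -0.95). Scarce pairs varied most, with an SD of 0.92 for Col11a1 to Col11a2 and 1.19 for Col8a1 to Col8a2. The Col8a1 to Col8a2 ratio was 2.43, 0.73 and 2.39 at 6 months and 3.58, 3.60 and 4.14 at 21 months on the log2 scale, without overlap. Its mean difference of 1.92 gave an exact two-sided permutation p of 0.1 (adjusted 0.75 over 21 comparisons of 7 pairs), the smallest that 3 against 3 mice allow. Without the 3 libraries set apart by slow fibre markers the difference was 1.18. No other comparison of a ratio reached 0.1, and with this design none could pass 0.05.

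**Figure D5:**
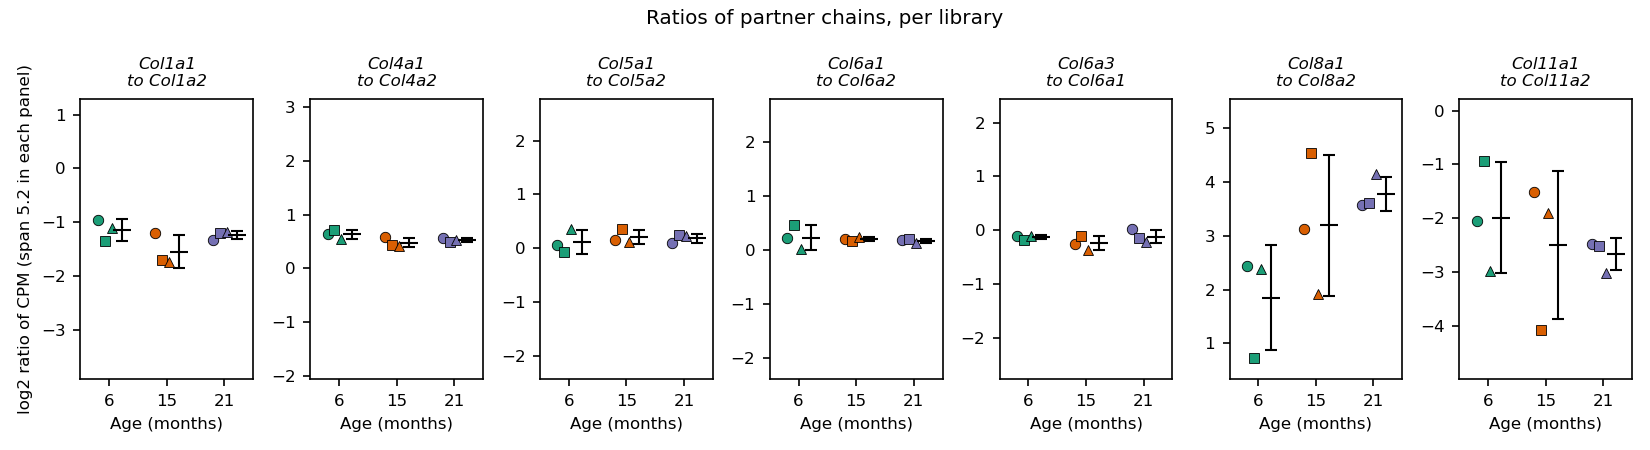
Log2 ratio of CPM between partner chains in each mouse (circle mouse 1, square mouse 2, triangle mouse 3), by age, with mean and SD, every panel spanning the same range of log2 units. The Col4a1 to Col4a2, Col6a1 to Col6a2 and Col6a3 to Col6a1 ratios lie in narrow bands, and the Col8a1 to Col8a2 ratio is higher in all 21-month mice than in all 6-month mice.

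Genes that modify, secrete, crosslink, bind, degrade or induce collagen were listed by role, 65 symbols in all, with Ccn2 and Ctgf naming the same gene. Of these symbols 64 were in the table and 60 were tested. By edgeR 0 passed the adjusted threshold in any comparison. At 21 against 6 months 24 were above and 36 below 0, with a median of -0.06, and 4 higher and 5 lower at an unadjusted p under 0.05 (5.14% and 5.5% of all genes). At 15 against 6 months 23 were above and 37 below 0, with 2 higher and 9 lower (4.91% and 5.38% of all genes). At 21 against 15 months 42 were above and 18 below, with 2 higher and 0 lower (1.08% and 0.736% of all genes).

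Of the enzymes and chaperones that prepare chains in the endoplasmic reticulum, 11 of 19 were above 0 at 21 against 6 months, with a median of 0.06. P4hb, the disulfide isomerase subunit of prolyl 4-hydroxylase, differed by 0.40 (SE 0.15, edgeR adjusted p = 0.386) and Ppib, a proline isomerase that assists helix winding, by 0.33 (SE 0.11, edgeR adjusted p = 0.334). The catalytic subunits P4ha1 and P4ha2 differed by -0.16 (SE 0.12, edgeR adjusted p = 0.673) and -0.26 (SE 0.11, edgeR adjusted p = 0.442). Mia3, the cargo receptor that loads procollagen for export, differed by 0.06 (SE 0.14, edgeR adjusted p = 0.925).

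Outside the cell, 9 of 12 processing and crosslinking genes were below 0 at 21 against 6 months. Adamts3, a procollagen protease, stood at 1.13, 1.25 and 3.74 CPM at 6 months, 0.806, 0.616 and 0.948 at 15 months and 0.841, 1.01 and 0.679 at 21 months. It was high in mouse 3 at 6 months, and the difference was -1.27 (SE 0.47, edgeR adjusted p = 0.370). The procollagen protease Bmp1 and its enhancer Pcolce differed by -0.28 (SE 0.14, edgeR adjusted p = 0.496) and 0.40 (SE 0.18, edgeR adjusted p = 0.470). Loxl4, of the lysyl oxidase family that crosslinks fibrils, differed by -0.69 (SE 0.28, edgeR adjusted p = 0.425) at 15 against 6 months and by 0.63 (SE 0.28, edgeR adjusted p = 0.9999) at 21 against 15 months. Among receptors 6 of 9 were below 0. Itgb1, the beta chain of the collagen-binding integrins, differed by 0.17 (SE 0.10, edgeR adjusted p = 0.581), and its partner chains Itga2, Itga10 and Itga11 by -0.89 (SE 0.39, edgeR adjusted p = 0.445), -0.60 (SE 0.29, edgeR adjusted p = 0.487) and -0.33 (SE 0.15, edgeR adjusted p = 0.470). The kinase receptor Ddr2 differed by 0.30 (SE 0.16, edgeR adjusted p = 0.527).

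Of the breakdown genes 7 of 9 were below 0 at 21 against 6 months, and the exception with the largest difference was Mmp3, stromelysin. Mmp3 stood at 0.126, 0.376 and 0.184 CPM at 6 months, 1.18, 0.432 and 0.505 at 15 months and 1.68, 1.13 and 1.42 at 21 months. All older mice lay above all young mice, but few reads were counted, with at most 0.376 CPM in the young mice and 1.68 CPM in the older ones. The log2 fold change at 21 against 6 months was 2.59 (SE 0.51, edgeR adjusted p = 0.0862) and rests on these low counts. DESeq2 called Mmp3 (adjusted p = 0.00881), the 1 pathway gene called by that tool of 60 tested, where 1.5% of all genes were called. The gelatinase Mmp2 stood at 65.9, 93.3 and 101 CPM at 6 months, 65.4, 72.1 and 63.1 at 15 months and 61.7, 68.8 and 65.0 at 21 months, with a difference of -0.41 (SE 0.15, edgeR adjusted p = 0.348) in which mice 2 and 3 at 6 months were high. Mmp9, the membrane protease Mmp14 and the inhibitors Timp2 and Timp3 differed by -0.66 (SE 0.32, edgeR adjusted p = 0.493), -0.33 (SE 0.17, edgeR adjusted p = 0.507), -0.26 (SE 0.14, edgeR adjusted p = 0.527) and -0.13 (SE 0.15, edgeR adjusted p = 0.815). Of the inducing signals 5 of 11 were above 0. The TGF-beta receptor Tgfbr1 and the signal carriers Smad2 and Smad3 differed by 0.00 (SE 0.22, edgeR adjusted p = 1), 0.30 (SE 0.10, edgeR adjusted p = 0.321) and 0.38 (SE 0.35, edgeR adjusted p = 0.744). Creb3l1, a transcription factor known to drive type I collagen in bone, differed by -0.60 (SE 0.25, edgeR adjusted p = 0.431).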

How the data were processed

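The values are estimated counts per gene, made and deposited by the authors for 17314 genes in 9 libraries of oligo(dT)-selected RNA, per the labels' protocols. The submitters' processing notes name the genome build mm10. Aligner, counter and strand setting: not given in the sources used here. Of 396 collagen values 2 were not whole within 0.005. 0 columns belonged to other samples, and 17188 IDs matched RefSeq (GRCm38.p6, the same build), which gave coordinates. Lengths are those of the longest protein-coding GENCODE transcript. GENCODE also gave the starts of the paired type IV genes and the shared exonic bases.

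Counts were rounded, filtered (filterByExpr, minimum count 10), scaled by TMM (factors 0.923 to 1.05) and fitted over all 9 libraries with edgeR 4.0.16 (quasi-likelihood test, R 4.3.3), age as a factor, 6 residual and 4.24 prior degrees of freedom, Benjamini-Hochberg adjustment over 13044 genes, threshold 0.05. DESeq2 1.42.0 and limma 3.58.1 served as alternatives, with other scalings, filters and left-out libraries. Partner ratios were compared by exact permutation tests. Total counts of 15354396 to 17317856 leave scarce chains with counting error beside the spread between mice.

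On simulated counts edgeR recovered 37.1, 76.5 and 97.1% of genes changed 1.5-, 2- and 4-fold at 21 against 6 months (12941 genes), 28, 80.8 and 97.1% at 15 against 6 (12949 genes) and 25, 77.8 and 100% at 21 against 15 (12959 genes). The simulated counts took their spread from a trend over expression level, without each gene's own spread or a shift of a whole library. With planted changes they gave 146, 154 and 134 calls in these comparisons, where the real counts gave 2, 1 and 0. The shares therefore do not give the power for the collagen chains, and 0 called chains does not exclude 2-fold differences.

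The chains, the pathway and marker lists and the tests were chosen with earlier results of these data known. Chains with a mean of at least 10 CPM, an unadjusted p under 0.05, or ages that did not overlap with an absolute log2 fold change of at least 0.5 are given mouse by mouse. Pathway genes are named at an unadjusted p under 0.05 in any comparison or as the 2 highest of their list. Counts over both older ages together, and the description of mouse 3 at 6 months, were added after the data were seen.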

Additional observations from a re-analysis of the deposited data

How the results depend on the processing

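The count of called chains was 0 in edgeR under each other scaling and filter, with the 2 groups compared alone and without each library, while DESeq2 called 1 chain, Col5a3, at 21 against 6 months, at 15 against 6 months and over all ages (1 in each). Numbers in the labels do not pair the mice, which are different animals, and correlations of same-numbered libraries ran from -0.42 to 0.41. With the number as a replicate block 0 chains were called in each comparison, and the fibrillar median at 21 against 6 months was -0.28. Not every library correlated best with its own number. With libraries left out in turn class medians moved. At 21 against 6 months they ran from -0.57 to 0.13 for fibrillar, -0.44 to -0.11 for basement membrane and -0.31 to 0.11 for other chains. At 15 against 6 months they ran from -0.51 to 0.019, -0.44 to -0.26 and -0.29 to 0.16, and at 21 against 15 months from -0.06 to 0.05, -0.06 to 0.09 and -0.10 to 0.03. In each of the 21 and 15 against 6 month medians the highest value came without mouse 3 at 6 months. The basement membrane median was -0.52 at 21 against 6 months when at least 5 CPM in 3 libraries were required, which drops Col4a6, and 0.17 at 21 against 15 months without the 3 libraries set apart by slow fibre genes, where the cause was not tested. With total count scaling 26 chains were below 0 and 10 above in each comparison with 6 months. With sample quality weights (voom) the split at 15 against 6 months was 23 below and 13 above. Among single chains Col5a3 passed the threshold with DESeq2 (-0.84 and -0.75). By the spread between mice 2 ratios moved without those 3 libraries, Col1a1 to Col1a2 to -0.70 at 15 and Col6a1 to Col6a2 to 0.08 at 21 against 6 months. Depth limits the 8 untested chains and those near 1 CPM.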
